A study of Mus musculus with 6 samples.

Results

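The 9 genes described here encode parts of the pathway that carries cytokine signals from the cell surface to the nucleus. They are the inhibitors Socs1 and Socs3, the kinases Jak1 and Jak2, and the transcription factors Stat2, Stat3, Stat5a, Stat5b and Stat6. They were chosen by name from a total of 24394 gene symbols, and all 9 were among the 10393 genes that were tested. They were measured by RNA sequencing in bone marrow-derived macrophages (BMMs), which are grown from the marrow of C57BL/6 mice at postnatal day 28 in medium with M-CSF, the growth factor of macrophages, at 50 ng/ml over 7 days. In the stimulated group, 3 cultures were given cartilage fragments, 5 to each macrophage, and harvested after 24 h. The control group was 3 cultures grown the same way without cartilage fragments, and the labels name no genetic change in either group. The cartilage came from femoral heads, and neither the labels nor the Methods tie a culture to a single animal, so the p-values measure the spread between these cultures, which may be technical. The Methods name male mice, yet Xist, a transcript of cells with a silenced X chromosome, stood at 19.8 to 23.6 FPKM in all 6 libraries and the sum of 4 Y-linked genes was 0 in each.

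In this pathway, a cytokine brings its receptor chains together and the JAK kinases bound to them phosphorylate the receptor tails. STAT proteins dock there, are phosphorylated in turn, pair up and move to the nucleus, where they bind DNA. SOCS proteins close the loop, since their genes are switched on by STATs and the proteins block the JAKs or the receptor. In macrophages the pathway is known to carry the signals of interferons, IL-4, IL-6, IL-10 and the colony-stimulating factors of the GM-CSF kind. Much of its control lies in phosphorylation, which RNA levels do not measure.

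Levels are given in FPKM, a count of sequenced fragments corrected for transcript length and library depth, as the authors obtained them from Cufflinks. An FPKM of a gene is the sum over its transcripts, including transcripts that Cufflinks assembled in the library at that gene alone. The deposited values rest on an estimated 742835 to 776371 sequenced fragments per control library and 699237 to 754139 per stimulated library, taken from the coverage listed beside each FPKM. The Methods give a far larger number of mapped reads per sample, and the reason for the gap was not tested. All fragment counts and counting errors given here rest on the estimate. Markers of macrophages such as Cd68, Csf1r and Lyz2 were high in all 6 libraries. The chondrocyte list, which would mark RNA from the cartilage, summed to 2.40 to 5.21 FPKM in the control libraries and 1.44 to 3.35 in the stimulated ones, and 8 of its 14 listed genes, among them Col9a1 and Matn1, were at 0 in every library. Erythroid markers were at 0 throughout, and the T, B and NK cell list summed to at most 6.54 FPKM. Of the 10 macrophage markers, 2 were higher in the stimulated libraries past the threshold of 0.05, beside 0.308% of all 10393 tested genes. Adgre1, which encodes F4/80, was at 350 to 373 FPKM in control and 524 to 566 in stimulated libraries (limma adjusted p = 0.00965). Cd14, a co-receptor for endotoxin, was at 112 to 123 and 168 to 198 FPKM (limma adjusted p = 0.0388). Groups did not overlap in 3 of the 10, all higher, beside 15.9% of all tested genes in either direction. These were Adgre1, Cd14 and Itgam, the last at 346 to 362 and 404 to 437 FPKM (limma adjusted p = 0.182). The neutrophil list overlapped between the groups, at 979 to 1085 and 875 to 1231 FPKM. The fibroblast list, led by Col1a1 and Col1a2, summed to 157 to 170 FPKM in control and 105 to 119 in stimulated libraries, and the osteoclast list to 324 to 337 and 271 to 292 FPKM. Both sums were lower in every stimulated library. That of the osteoclast list was carried by Atp6v0d2, while Acp5 of the same list was higher in every stimulated library, with 41.6 to 55.1 FPKM against at most 27.1 FPKM in control libraries. That of the fibroblast list was carried by Col1a1 and Col1a2. Col3a1 and Dcn went opposite ways (log2 fold changes -0.70 and 0.28), with groups that overlapped. Lum, Pdgfra, Pdgfrb and Thy1 were at most 1.28 FPKM in any library. For all of these, their part in the results was not tested. In bulk RNA of this kind, fewer cells of a type and less RNA per cell cannot be told apart.

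The sequence that STATs bind is short, and its matches in the members' promoters are shown because the inhibitors are themselves genes that STATs are known to control. RefSeq windows of GRCm38.p6, the build called mm10, were found for all 9 members, as 11 windows. In the 250 bases before the start of transcription, both strands were searched for TTCNNNGAA, the STAT site with 3 bases between its arms, for its form with 4 bases between the arms, which STAT6 prefers, and for the interferon-stimulated response element bound by STAT2 complexes. A match was found in the windows of Socs3, Socs1 and Stat2 and in none of the other 8. The 3 windows read as follows on the strand of the gene, 5′ to 3′, with matches in capitals.

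Socs3 (chr11:117969367-117969616, minus strand): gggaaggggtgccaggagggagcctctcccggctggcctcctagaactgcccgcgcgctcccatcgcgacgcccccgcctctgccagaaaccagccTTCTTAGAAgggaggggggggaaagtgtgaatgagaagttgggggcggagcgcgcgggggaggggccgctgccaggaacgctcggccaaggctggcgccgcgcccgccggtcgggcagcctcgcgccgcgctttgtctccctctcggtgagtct

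Socs1 (chr16:10785537-10785786, minus strand): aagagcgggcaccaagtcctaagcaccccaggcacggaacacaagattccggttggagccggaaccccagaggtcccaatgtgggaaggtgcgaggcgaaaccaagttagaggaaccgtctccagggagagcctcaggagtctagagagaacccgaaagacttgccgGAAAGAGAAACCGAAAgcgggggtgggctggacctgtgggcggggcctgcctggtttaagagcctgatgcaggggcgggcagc

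Stat2 (chr10:128270248-128270497, plus strand): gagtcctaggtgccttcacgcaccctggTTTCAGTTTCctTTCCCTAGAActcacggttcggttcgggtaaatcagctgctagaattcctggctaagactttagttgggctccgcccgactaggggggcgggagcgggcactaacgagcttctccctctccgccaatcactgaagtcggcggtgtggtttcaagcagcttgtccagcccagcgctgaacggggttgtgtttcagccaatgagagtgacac

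The capitals in Socs3 are TTCTTAGAA, a match of the STAT site from 154 to 146 bases before the start. In Socs1 they cover 2 overlapping matches of the interferon element, which lie on the opposite strand from 83 to 74 and from 77 to 68 bases before the start. Stat2 held a match of the interferon element from 222 to 213 bases and a match of the STAT site with 4 bases between the arms from 210 to 201 bases before the start. Such letters are not rare. TTCNNNGAA was found in 7.02% of all 32851 windows of this length, the form with 4 bases in 5.85% and the interferon element in 2.98%. Positions are counted from the RefSeq start, which for Socs3 is also the first base of its transcript in the files and for Stat2 lies upstream of the first base there. In these 2 windows the bases after the start were not found in a GENCODE M21 transcript of the gene, so the start itself is less certain than in Socs1. The GENCODE M21 gene of Socs3 reaches to 117970047, and since it lies on the minus strand, the whole Socs3 window falls inside it. A match is a description of the sequence, and binding was not measured here.

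To find which members differed between stimulated and control BMMs, all tested genes were compared with limma (two-sided, Benjamini-Hochberg adjustment over all tested genes, threshold 0.05). Socs3 was the member that passed, and it was higher in the stimulated cultures. This makes 1 of 9 members, beside 38 of all 10393 tested genes (0.366%), of which 32 were higher (0.308%) and 6 were lower (0.0577%). The other 8 members did not pass, and with FPKM none of them had an unadjusted p under 0.05 in limma either. With estimated fragments in place of FPKM, Socs3 was again the member that passed. In that setting 3 of the 9 members had an unadjusted p under 0.05, beside 1170 of all 10393 tested genes. The median log2 fold change of the 9 members was 0.16, beside 0.0037 over all tested genes.

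Socs3, the inhibitor that binds gp130-type receptors and the JAKs attached to them, lies on chromosome 11 from 117966087 to 117969366 on the minus strand (mm10), with the single transcript NM_007707. Its level was 3.61, 3.18 and 5.93 FPKM in the control libraries and 18.1, 17.2 and 14.3 FPKM in the stimulated ones. Every stimulated library was above every control library, and the spread within each group was small beside the gap between them. Its mean was 4.24 ± 1.48 FPKM without and 16.6 ± 1.97 FPKM with cartilage fragments (SD, n = 3). This is a log2 fold change of 1.98 (SE 0.28, 95% interval 1.34 to 2.62, limma adjusted p = 0.0322), a rise of 3.96-fold. By this change it ranked number 14 of the 32 genes that were higher. The study listed Socs3 from these same samples, so its choice as a member is not independent of its direction.

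By the estimate from coverage, the reads behind Socs3 were few. About 24 sequenced fragments in the control libraries and 91 in the stimulated ones gave a ratio of 3.97 after scaling to depth (exact 95% interval 2.51 to 6.50, counting error only). The spread between the control libraries, 34.9% of their mean, was close to the 35.2% that counting of so few fragments gives. That between the stimulated libraries, 11.9%, was below the 18.2% from counting, so it may understate the error there. The interval that Cufflinks lists for each value reached at most 8.98 FPKM in the controls and began at 9.01 FPKM or above in the stimulated libraries. The direction was therefore the same by every library and by the counts.

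The call of Socs3 depended on the processing and its size did not. Its log2 fold change lay between 1.77 and 2.25 in 18 other settings, and the adjusted p was under 0.05 in 11 of them. It was 0.164 with variances moderated without a trend or robust weights and 0.139 with reference transcripts alone, where the Socs3 values themselves are the same. Without control replicate 1 or 2 it was 0.111 or 0.104, and without stimulated replicate 1, 2 or 3 it was 0.202, 0.151 or 0.0942. Without control replicate 3, the control with the highest level, it was 0.0198. With the estimated fragments of each gene in place of FPKM it was 0.000202, and 2.1% of all tested genes passed in that setting.

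**Figure D1:**
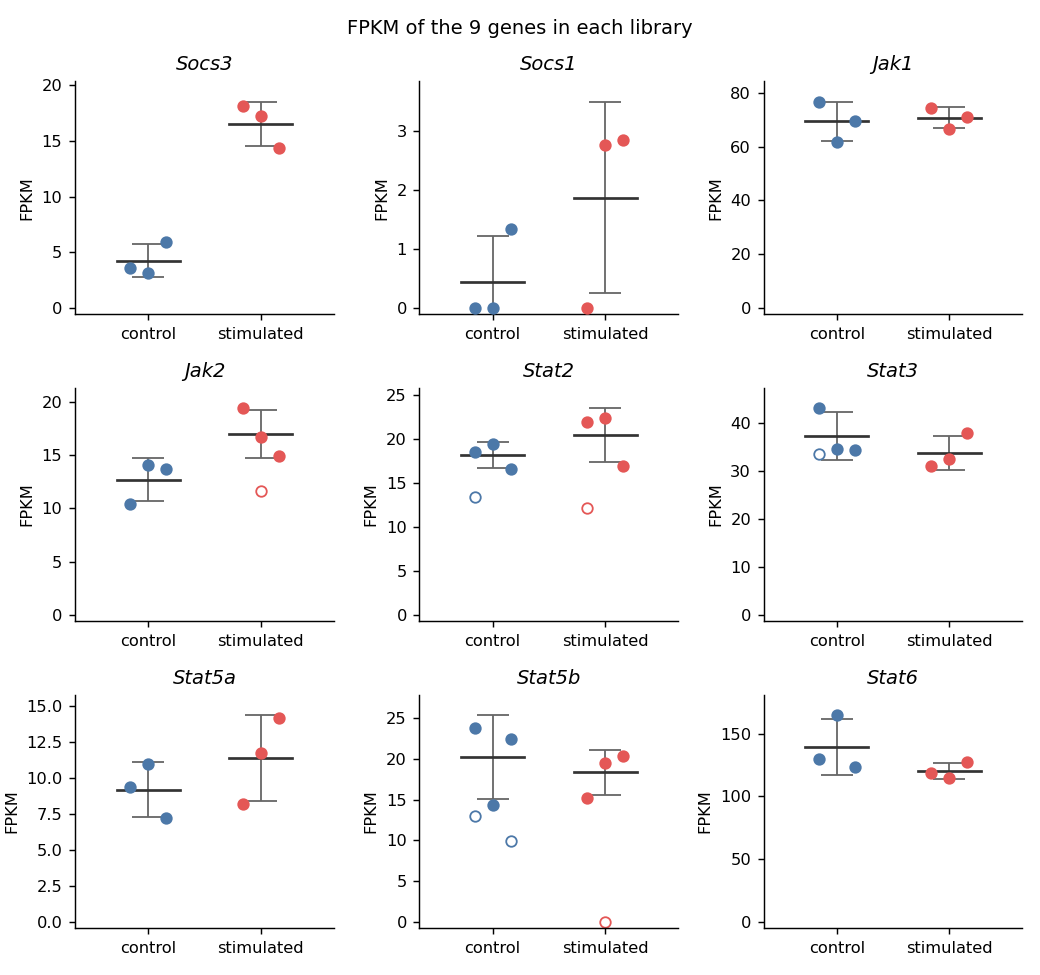
FPKM of the 9 genes in the 3 control and 3 stimulated libraries, on a linear axis from 0. Filled points are single libraries with the sum over all transcripts of the gene, open points the sum over reference transcripts alone where it differs, and the bars show the mean ± SD. For Socs3 the stimulated libraries sit between 14.3 and 18.1 FPKM and the controls between 3.18 and 5.93.

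Socs1, the inhibitor that blocks the catalytic site of the JAKs and is best known for its brake on interferon signals, was close to absent. It lies on chromosome 16 from 10783809 to 10785536. Its level was 0, 0 and 1.34 FPKM in the control libraries and 0, 2.77 and 2.86 FPKM in the stimulated ones, so the groups overlapped. These values come from 1 fragment in all control libraries together and 4 in the stimulated ones, a ratio of 4.18 with an exact counting interval of 0.414 to 206. Its adjusted p was 0.811 in limma, and it passed the filter at a mean of 1 FPKM through the stimulated libraries. No difference was detectable at this estimated depth.

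Set against each other within a library, Socs3 and Socs1 gave no steady relation. The log2 ratio of Socs3 to Socs1 (0.1 FPKM added to both) was 5.21, 5.04 and 2.07 in the controls and 7.51, 2.59 and 2.29 in the stimulated libraries, and followed the libraries in which Socs1 was at 0. No difference between the groups was found (difference 0.024, two-sided exact permutation p = 1), with a test that cannot go below 0.1, and with 1 FPKM added in place of 0.1 the difference was 0.89 (exact permutation p = 0.4), so the constant sets its size. Against Stat3, the factor known to switch it on, Socs3 stood higher in every stimulated library than in any control library. Its level was 8.41%, 9.24% and 17.3% of that of Stat3 in the controls and 58.4%, 53.3% and 38.0% in the stimulated libraries. The log2 ratio was higher by 2.12, with groups that did not overlap, and the exact permutation p of 0.1 is the smallest that 3 against 3 can give. Stat3 itself had a log2 fold change of -0.14, so the ratio mostly restates the 1.98 of Socs3 and is not a separate result.

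Jak1 and Jak2, the kinases, differed less than Socs3. Jak1, which serves the receptors of interferons and of the IL-6 and IL-4 families, lies on chromosome 4 from 101151974 to 101265282. It stood at 76.6, 61.9 and 69.6 FPKM in the controls and 74.5, 66.7 and 71.2 FPKM in the stimulated libraries. The groups overlapped fully, with a log2 fold change of 0.034 (SE 0.12, 95% interval -0.24 to 0.31, limma adjusted p = 0.958), so that in fold terms the interval runs from 0.844 to 1.24. Jak1 rested on 238 to 303 fragments a library, and its sign is set by the scaling, being -0.0027 with equal library totals and -0.0063 after quantile normalization.

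Jak2, the kinase of the GM-CSF and interferon gamma receptors, lies on chromosome 19 from 29251803 to 29313080. Its level was 10.4, 14.0 and 13.7 FPKM in the controls and 19.3, 16.7 and 14.9 FPKM in the stimulated libraries. The groups did not overlap, by a narrow gap between control replicate 2 and stimulated replicate 3. Its log2 fold change of 0.42 (SE 0.20, 95% interval -0.045 to 0.89) did not pass (limma adjusted p = 0.584). About 137 fragments in the control libraries and 179 in the stimulated ones gave a ratio of 1.37 after scaling to depth. The exact 95% interval of this ratio was 1.09 to 1.72, with counting error only. With estimated fragments in limma Jak2 did not pass (adjusted p = 0.289). The lack of overlap rests on an assembled transcript that holds 5.04 FPKM in stimulated replicate 2, since the reference transcripts alone gave 11.6 FPKM there, below 2 of the controls. Jak2 and Socs3 were the 2 of 9 members whose groups did not overlap, and this was so for 15.9% of all tested genes.

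Stat6, the factor of IL-4 and IL-13 signalling, was the most abundant member. It lies on chromosome 10 from 127642986 to 127660987. Its level was 129, 165 and 123 FPKM in the controls and 119, 115 and 127 FPKM in the stimulated libraries. Control replicate 2 stood above the rest and the other 5 libraries lay close together. Stat6 did not pass, with a log2 fold change of -0.20 (SE 0.12, 95% interval -0.49 to 0.086, limma adjusted p = 0.681), which was -0.072 without control replicate 2. About 1139 fragments in the control libraries and 939 in the stimulated ones gave a ratio of 0.862 after scaling to depth. Its exact 95% interval was 0.790 to 0.941, with counting error only. The spread between the control libraries, 16.0% of their mean, was above the 5.13% from counting. With estimated fragments in limma Stat6 did not pass (adjusted p = 0.411).

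Stat3, the factor of the IL-6 and IL-10 families, lies on chromosome 11 from 100886810 to 100939511. It stood at 42.9, 34.4 and 34.3 FPKM in the controls and 31.0, 32.3 and 37.8 FPKM in the stimulated libraries. The groups overlapped, with control replicate 1 the highest, and the log2 fold change was -0.14 (SE 0.16, 95% interval -0.50 to 0.22, limma adjusted p = 0.821). In fold terms the interval reaches from 0.705 to 1.17, and its upper end is below the lower end of the interval of Socs3, 2.54.

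Stat2, which acts with Irf9 in the complex that answers type I interferon, lies on chromosome 10 from 128270576 to 128292849. Its level was 18.5, 19.5 and 16.5 FPKM in the controls and 22.0, 22.4 and 16.9 FPKM in the stimulated libraries. Stimulated replicates 1 and 2 were above all controls and replicate 3 was among them. The log2 fold change was 0.16 (SE 0.18, 95% interval -0.26 to 0.58, limma adjusted p = 0.821). With the reference transcript alone it was 0.030, because assembled transcripts held 5.08 FPKM in control replicate 1 and 9.84 FPKM in stimulated replicate 1.

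Stat5a and Stat5b are neighbouring copies on chromosome 11 that answer GM-CSF, IL-2 and growth hormone, and their reads can be shared where the sequences match. Stat5b runs from 100780731 to 100850585 and Stat5a, on the other strand, from 100859351 to 100885169, with 8765 bases between them and 1640 bases from Stat5a to Stat3. Stat5a stood at 9.37, 11.0 and 7.19 FPKM in the controls and 8.19, 11.7 and 14.1 FPKM in the stimulated libraries (log2 fold change 0.29, SE 0.27, 95% interval -0.34 to 0.91, limma adjusted p = 0.790). Stat5b stood at 23.9, 14.3 and 22.5 FPKM in the controls and 15.2, 19.5 and 20.4 FPKM in the stimulated libraries (log2 fold change -0.11, SE 0.24, 95% interval -0.67 to 0.44, limma adjusted p = 0.917). Both pairs of groups overlapped. Stat5a made up 32.0% ± 10.2 of the sum of both genes in control and 37.8% ± 3.00 in stimulated libraries (SD, n = 3, two-sided exact permutation p = 0.4). Stat5b was above Stat5a in all 6 libraries.

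**Figure D2:**
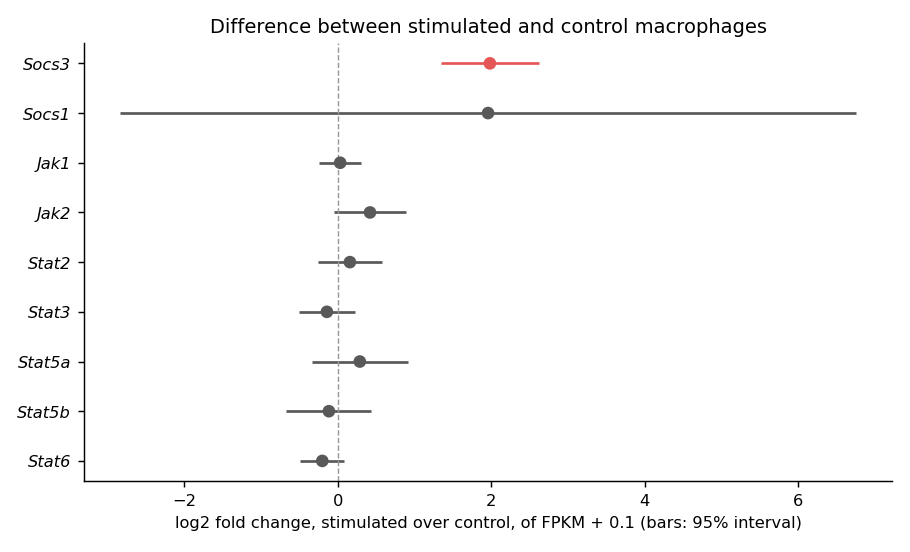
Log2 fold change of stimulated over control libraries for each member, on log2(FPKM + 0.1), with 95% intervals from limma as bars and 3 libraries a group. Socs3, in red, is the gene past the adjusted threshold of 0.05, at 1.98 (1.34 to 2.62). The interval of Socs1 runs from -2.83 to 6.75 and those of the other 7 genes include 0.

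Across the 6 libraries the members fell into an order of level. Stat6 was highest at a mean of 130 FPKM, above 94.8% of the tested genes, followed by Jak1 at 70.1, Stat3 at 35.5, Stat5b and Stat2 at 19.3 each, Jak2 at 14.8, Socs3 at 10.4, Stat5a at 10.3 and Socs1 at 1.16 FPKM. The ranges over libraries did not overlap between Stat6 and Jak1, between Jak1 and Stat3, between Stat3 and Stat5b, or between Stat5a and Socs1. They overlapped between every other pair of neighbours in this order, and Stat5b was above Stat2 in 3 of 6 libraries, as Socs3 was above Stat5a. Socs3 changed its place, since it was the lowest member but for Socs1 in each control library and above Stat5a in each stimulated one. Jak1 exceeded Jak2 by 3.85 to 7.39 times in every library, and Stat6 exceeded Stat3 by 3.02 to 4.78 times.

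The levels of single transcripts moved far more between libraries than those of the genes. Jak2 was given wholly to NM_001048177 in the 3 controls and wholly to NM_008413 in stimulated replicates 1 and 3, with log2 fold changes of -4.69 and 4.94 for these transcripts, while the gene as a whole gave 0.42. Stat3 was split over 3 reference transcripts and an assembled one in control replicate 1 and given to NM_213659 alone in control replicate 3 and in all stimulated libraries. Stat5b had no FPKM on its reference transcripts in stimulated replicate 2, where an assembled transcript at the same locus held 19.5 FPKM. In the sum over reference transcripts its levels were therefore 12.9, 14.3 and 9.94 FPKM in the controls and 15.2, 0 and 20.4 FPKM in the stimulated libraries, and its log2 fold change was -1.97 (SE 2.12, limma adjusted p = 0.804). None of the transcripts of a member passed the threshold when each was tested by itself with limma, the lowest adjusted p being 0.141 for that of Socs3. The transcripts of a gene share most of their exons, and at 38 to 71 fragments a library, as in Jak2, how Cufflinks divides them is not a measurement of isoform use.

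**Figure D3:**
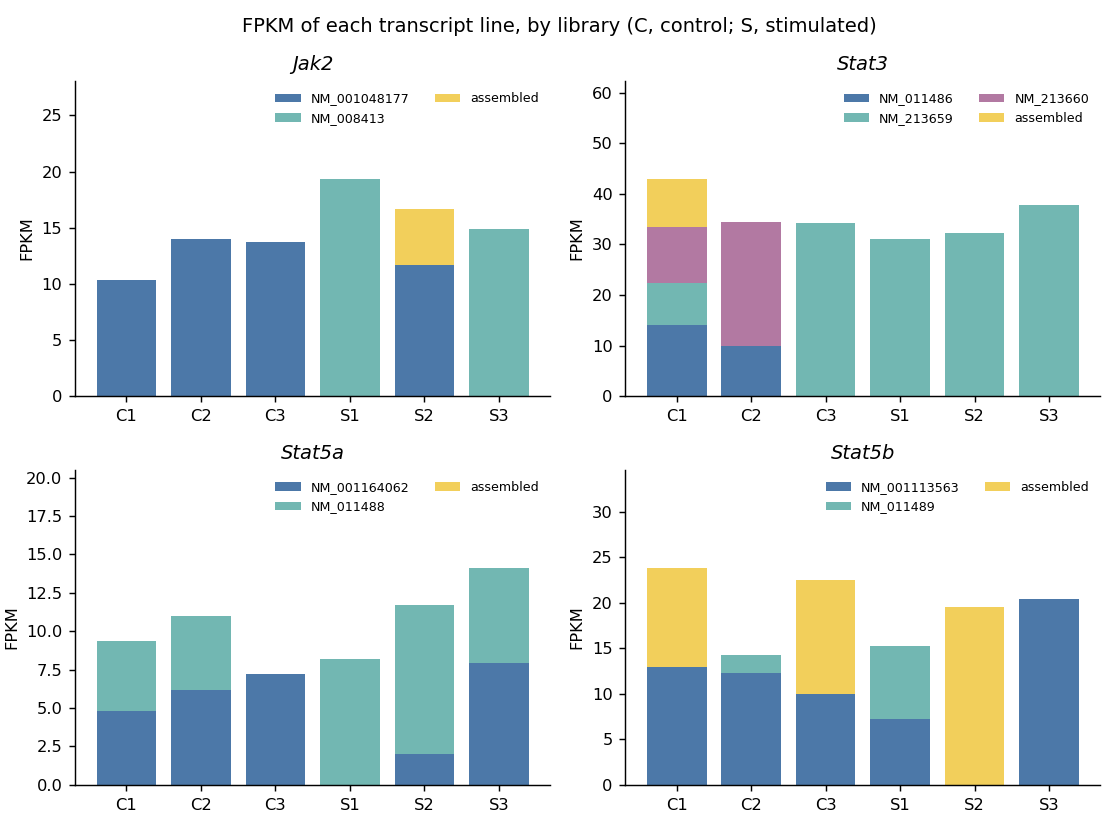
FPKM of each transcript of Jak2, Stat3, Stat5a and Stat5b in the 6 libraries, stacked, on linear axes from 0 (C, control; S, stimulated). Blue, green and purple are reference transcripts and yellow is the sum of transcripts assembled in that library. The stacks change colour between libraries of 1 group while their heights stay closer, as in Stat3, which lies between 31.0 and 42.9 FPKM.

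Some of the members lie over other genes. In the GENCODE M21 annotation the end of Stat5a shares 72 bases with an extended end of Stat3 on the opposite strand, the models in the files do not meet, exons of Stat6 overlap those of Nab2, and exons of Jak1 overlap those of Raver2. The libraries were made with a stranded kit and whether the quantification used the strand is not given in the sources used here, so reads in those stretches cannot be assigned with certainty. Socs1, Socs3, Stat2 and Jak2 had no such overlap.

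The rest of the pathway was read from fixed lists that hold 123 further genes, 94 of them tested. Of these 94, 2 were higher past the threshold (Saa3 and Hp) and 0 were lower in limma, beside 0.366% of all tested genes in either direction. At an unadjusted p under 0.05 there were 23 of the 94, and 955 of all tested genes. With estimated fragments in place of FPKM 7 passed, beside 2.1% of all tested genes, namely Saa3, Hp, Il2rg, Bcl3, Hif1a and Tgm2, which were higher, and Il7r, which was lower. The groups did not overlap in 23 genes that were higher and 3 that were lower in the stimulated libraries, beside 940 and 716 of all 10393 tested genes (15.9% in either direction). These counts and shares over all tested genes hold beside each list below. The median log2 fold change of the 94 genes was 0.14. From these same samples, by its own test at a q-value under 0.05, the study listed more of these genes. It gave Saa3, Hp, Bcl3, Hif1a, Bst2, Csf2rb, Ifnar1, Il2rg, Ptpn6 and Tgm2 as higher and Il7r as lower.

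Among the other kinases and STATs, none of 2 tested genes passed in limma with FPKM or with estimated fragments, and 1, Jak3, had an unadjusted p under 0.05. Jak3, which pairs with the common gamma chain, was at 3.49, 1.92 and 2.35 FPKM in the controls and 6.18, 4.43 and 3.89 FPKM in the stimulated libraries, groups without overlap on about 21 and 37 fragments (log2 fold change 0.89, limma adjusted p = 0.515). Tyk2 was at 16.6 ± 1.48 and 17.7 ± 1.54 FPKM (SD, n = 3).

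Among the other SOCS genes, none passed. Of the 5 tested genes 0 passed in limma, with FPKM or with estimated fragments, and 0 had an unadjusted p under 0.05. Their median log2 fold change was -0.019, and all 5 had groups that overlapped. Socs4 was at 3.65 ± 2.12 FPKM in the controls and 5.73 ± 1.25 FPKM in the stimulated libraries (log2 fold change 0.82, SE 0.51, limma adjusted p = 0.676), Socs7 at 3.85 ± 0.706 and 3.52 ± 1.22 FPKM, and Socs2 at 1.34 ± 1.29 and 0.758 ± 0.750 FPKM (SD, n = 3). Socs2 passed the filter through the control libraries. A test of the difference between Socs3 and the other SOCS genes was not made. Among 11 other brakes on the pathway, 0 passed in limma, also with estimated fragments, and 1, Ptpn6, had an unadjusted p under 0.05. Ptpn6, the phosphatase SHP-1, was at 118, 126 and 111 FPKM in the controls and 153, 159 and 147 FPKM in the stimulated libraries, and the phosphatase gene Ptpn1 at 60.6 ± 1.93 and 69.6 ± 4.34 FPKM. Both had groups without overlap, with log2 fold changes of 0.37 (adjusted p = 0.186) and 0.20 (adjusted p = 0.630) in limma. The abundant Ptprc, which encodes CD45, was at 114 ± 6.33 and 123 ± 9.24 FPKM, the adaptor Sh2b3 at 23.6 ± 2.44 and 31.2 ± 6.41 FPKM, the SUMO ligase Pias4 at 22.7 ± 4.55 and 20.4 ± 0.701 FPKM, and Usp18, a brake on the interferon receptor, at 5.35 ± 2.59 and 7.15 ± 1.05 FPKM.

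Of 25 receptor chains that signal through JAKs, 19 were tested and 0 passed in limma. Of the 19, 4 had an unadjusted p under 0.05 (955 of all 10393 tested genes) and 2 passed with estimated fragments (2.1% of all tested genes). The most abundant were Ifngr1 at 172 ± 3.38 FPKM in control and 189 ± 15.5 in stimulated libraries, Csf2ra at 137 ± 9.38 and 139 ± 28.8, Csf2rb at 99.7 ± 15.1 and 120 ± 19.3, Il10rb at 113 ± 5.77 and 103 ± 9.42, and Csf3r at 65.2 ± 6.68 and 76.2 ± 9.94 FPKM (SD, n = 3). These receive interferon gamma, GM-CSF, IL-10 and G-CSF. Il2rg, the common gamma chain, was at 39.8, 42.3 and 27.0 FPKM in the controls and 80.2, 80.8 and 63.5 FPKM in the stimulated libraries, so the groups were far apart. Its log2 fold change of 1.06 (SE 0.20) missed the threshold in limma (adjusted p = 0.102) and passed it with estimated fragments (adjusted p = 0.000697). Ifnar1, a chain of the type I interferon receptor, was at 16.6 ± 2.17 and 28.8 ± 10.3 FPKM (adjusted p = 0.417), and Csf2rb2 at 47.9 ± 7.73 and 77.2 ± 15.4 FPKM (adjusted p = 0.246). Both had groups without overlap. Csf2rb2 and Csf2rb are close copies whose reads may be divided between them.

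Many of the ligand genes were weak or at 0. Of 17 ligand genes 6 were tested, and 0 of these passed in limma, also with estimated fragments. An unadjusted p under 0.05 was found for 3, beside 955 of all 10393 tested genes. They were Ebi3, which was higher, and Il15 and Il11, which were lower. Il15 was at 14.5, 16.3 and 17.8 FPKM in the controls and 11.3, 11.8 and 9.47 FPKM in the stimulated libraries. Its groups did not overlap, on about 39 and 25 fragments (log2 fold change -0.57, limma adjusted p = 0.386). Another 7 ligand genes were listed at 0 in every library, namely Il6, Ifnb1, Ifng, Il2, Il4, Il13 and Csf2. The most abundant of the ligand genes was Ebi3, a chain of IL-27 and IL-35, at 55.2, 39.1 and 36.2 FPKM in the controls and 73.0, 64.0 and 74.6 FPKM in the stimulated libraries (log2 fold change 0.72, limma adjusted p = 0.198). Il11 was at 2.46 ± 1.44 and 0.285 ± 0.493 FPKM on about 9 fragments and 1 fragment, and Clcf1 at 4.43 ± 0.531 and 2.72 ± 3.14 FPKM (SD, n = 3). Il11 passed the filter through the control libraries, which fixes its direction.

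Genes known as targets of the STATs showed a rise in 2 acute phase genes, and no other gene on the target lists passed with FPKM in limma. Of 24 STAT3 targets, all tested, 2 passed, both of them higher, beside 0.308% of all tested genes that were higher. At an unadjusted p under 0.05 there were 9, beside 955 of all 10393 tested genes, and with estimated fragments 4 passed, beside 2.1%. The groups did not overlap in 8 genes that were higher and 2 that were lower, beside 15.9% of all tested genes in either direction. The 2 that were lower were Pim1 (log2 fold change -0.56, limma adjusted p = 0.423) and Nfil3 (log2 fold change -0.50, limma adjusted p = 0.526). The median over the list was 0.22 on the log2 scale. Saa3, which encodes an acute phase apolipoprotein made by macrophages, was at 433, 454 and 349 FPKM in the controls and 3653, 3796 and 2935 FPKM in the stimulated libraries (log2 fold change 3.07, SE 0.13, limma adjusted p = 0.000166). Hp, which encodes the hemoglobin-binding haptoglobin, was at 27.4, 28.2 and 15.5 FPKM and 162, 172 and 122 FPKM (log2 fold change 2.71, SE 0.25, limma adjusted p = 0.00411). In both genes the groups were far apart. Hp lost its call without stimulated replicate 1 (adjusted p = 0.0539) and with plain moderation of variances (adjusted p = 0.0700), and Saa3 kept its call in all 18 other settings. The study listed both genes from these samples, and both also answer signals other than STAT3. Il1rn, the IL-1 receptor antagonist, was at 4.61 ± 1.28 and 10.5 ± 0.861 FPKM, without overlap (log2 fold change 1.20, limma adjusted p = 0.133).

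None of the 9 tested STAT5 targets passed in limma, also with estimated fragments, 1 had an unadjusted p under 0.05, and their median log2 fold change was -0.094. The kinase gene Pim1 was at 33.6, 31.1 and 29.8 FPKM in the controls and 16.5, 22.6 and 26.2 FPKM in the stimulated libraries, lower in each (log2 fold change -0.56, limma adjusted p = 0.423), while Pim2 was at 2.89 ± 2.92 and 2.80 ± 1.60 FPKM. Of 16 STAT6 targets 8 were tested and 0 passed, with a median log2 fold change of 0.19. An unadjusted p under 0.05 was found for 2, beside 955 of all 10393 tested genes. With estimated fragments 1 passed, beside 2.1% of all tested genes. Arg1, the arginase of alternatively activated macrophages, was at 0, 0 and 2.14 FPKM in the controls and 7.40, 4.41 and 9.10 FPKM in the stimulated libraries. Its groups did not overlap, on about 2 and 19 fragments, and its limma adjusted p was 0.252. With a control mean of 0.712 FPKM, Arg1 passed the filter through the stimulated libraries, which fixes its direction. Tgm2, a transglutaminase, was at 41.1 ± 3.22 and 58.9 ± 5.73 FPKM without overlap (log2 fold change 0.52, limma adjusted p = 0.222), and passed with estimated fragments (adjusted p = 0.0112). Clec10a, a lectin, was at 3.42 ± 2.61 and 4.52 ± 1.42 FPKM (SD, n = 3).

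Of 20 interferon targets of STAT2, 18 were tested and 0 passed in limma, also with estimated fragments. At an unadjusted p under 0.05 there were 3 of the 18, beside 955 of all 10393 tested genes. The median log2 fold change of the tested ones was 0.54, and 3 of them, Mx1, Oasl1 and Cxcl10, passed the filter through the stimulated libraries, which fixes their direction. With no filter the median over all 20 genes was 0.42, and 19 of the 20 had a log2 fold change above 0. Of all 10393 tested genes, 5249 were above 0. With a library left out, the number of the 18 tested targets above 0 ran from 14 (without control replicate 3) to 18 (without control replicate 1). The median was 0.21 over the 10 genes with a mean of 5 FPKM or more, 0.37 without control replicate 2 and 0.38 without stimulated replicate 2. Isg15, the ubiquitin-like modifier, was at 0, 4.89 and 14.8 FPKM in the controls and 14.7, 12.8 and 10.5 FPKM in the stimulated libraries, a spread among the controls wider than the difference. Mx1 was at 0.700 ± 0.289 and 2.02 ± 0.586 FPKM and Oasl1 at 0.698 ± 0.708 and 2.17 ± 0.674 FPKM (SD, n = 3), each without overlap, on about 4 and 11 fragments for Mx1 and 3 and 9 for Oasl1. Groups did not overlap in 6 of the 18, all higher, beside 15.9% of all tested genes in either direction. Among those with more fragments, Bst2 was at 85.6 ± 3.88 and 129 ± 17.7 FPKM (limma adjusted p = 0.123). Oasl2 was at 10.1 ± 0.838 and 16.6 ± 3.02 FPKM (limma adjusted p = 0.290). Irf7, Irf9, Oas1a and Ddx58, of similar or higher level than Oasl2, had groups that overlapped.

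**Figure D4:**
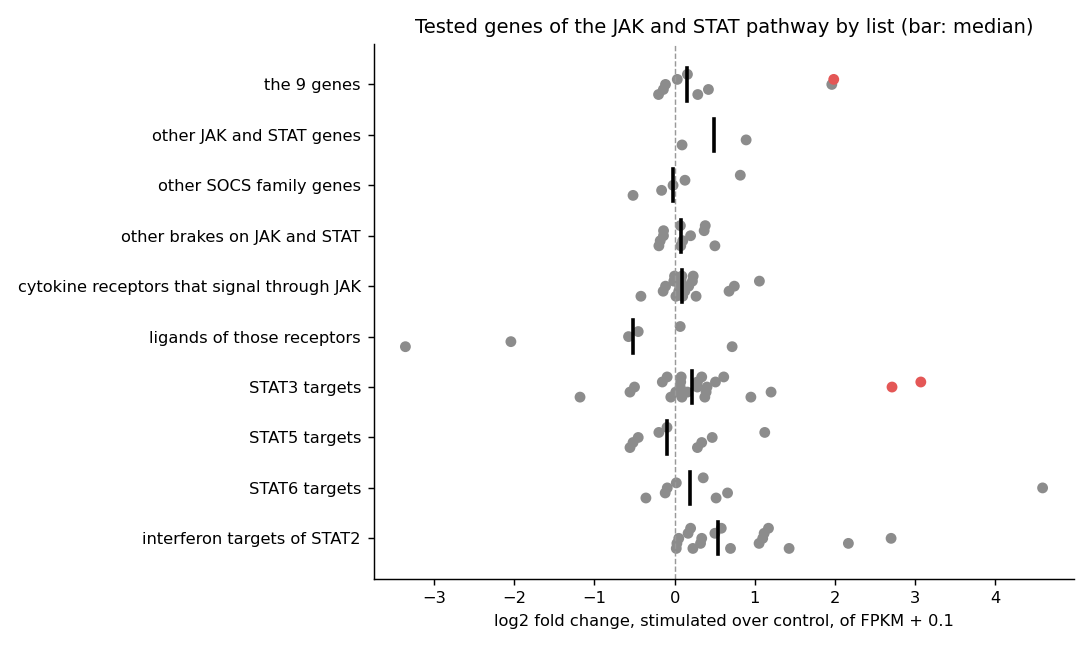
Log2 fold change, stimulated over control, of each tested gene of the pathway lists and of the 9 members, on log2(FPKM + 0.1), with a black bar at the median of each list. Red points passed the adjusted threshold of 0.05, which were Socs3, Saa3 and Hp. A gene on 2 lists is drawn in each.

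As a description, the genes whose level followed a member most closely over the 6 libraries were sought among tested genes whose mean reached 10 FPKM. For Socs3 these were Pid1 (Pearson r = 0.999 of the log2 levels), the hypoxia factor gene Hif1a (r = 0.997) and the integrin gene Itgb2 (r = 0.994), and 51 of 5523 genes exceeded 0.95. For Stat3 they were Slc30a5 (r = 0.980), Dvl2 (r = 0.979) and Uba7 (r = 0.975), and 10 genes exceeded 0.95. Pid1 was at 81.1 ± 10.1 FPKM in control and 133 ± 2.98 in stimulated libraries, Hif1a at 21.2 ± 1.83 and 32.5 ± 0.524 FPKM, and Itgb2 at 730 ± 21.5 and 827 ± 18.7 FPKM (SD, n = 3). With 6 libraries in 2 groups, any gene that differed between the groups comes near to Socs3 in this measure.

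**Figure D5:**
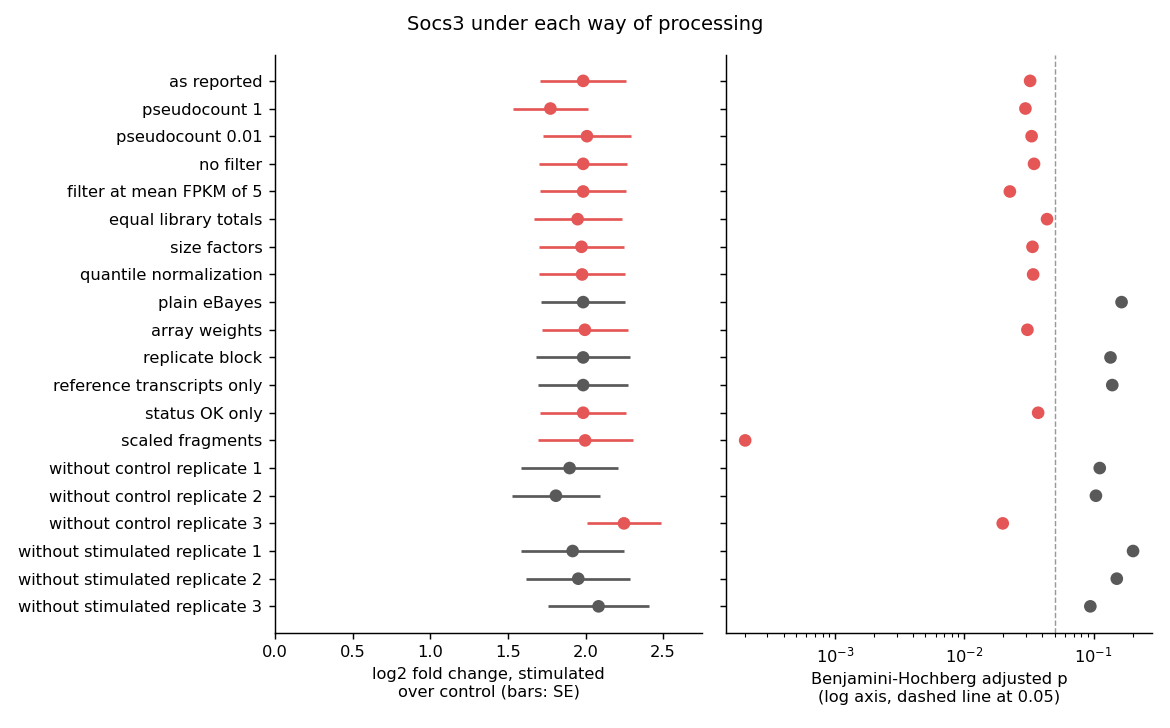
Socs3 in the comparison as reported and under each other way of processing, with the log2 fold change and its SE on the left and the adjusted p on a log axis on the right. Red marks an adjusted p under 0.05. The log2 fold change lies between 1.77 and 2.25 in every setting drawn, while the adjusted p lies on both sides of 0.05.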

How the data were processed

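The series holds 6 RNA-seq libraries of mouse BMMs, 3 control and 3 stimulated. Per the Methods and the submitters' processing notes, the authors aligned paired 100-bp reads from a stranded TruSeq kit with Bowtie and TopHat to the mouse genome mm10 and then used Cufflinks for each library. The deposited FPKM come from it, by transcript, each with a lower and upper bound. Versions are not given in the sources used here, and whether the TMM scaling named in the Methods was applied cannot be told from the values. The deposited coverage signal is the mean read depth that Cufflinks gives beside each FPKM.

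Here an assembled transcript was given the symbol of its Cufflinks locus where that locus held a single reference symbol, and FPKM were summed per symbol and library. Fragments were estimated from coverage, length and FPKM, and 94.9% to 95.6% of values up to 8 fragments came within 0.1 of a whole number. Intervals on fragments cover counting error only. Genes whose mean over the libraries reached 1 FPKM were compared as log2(FPKM + 0.1), where the constant understates the change of low genes and, for genes with a library at 0, sets its size (Isg15 gave 2.70 and, with 1 added, 1.58; Pim2 gave 1.12 and 0.27), with limma 3.58.1 in R 4.3.3 (lmFit, eBayes with trend and robust). Tables, exact tests and figures used scipy 1.17.1, matplotlib 3.10.9, numpy 2.4.6 and pandas 2.3.3 in Python 3.11.15. The procedure was tested on simulated data. Positions are those of the files with 1 added to each start.

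The members and the lists were chosen with earlier results of these data known. Of the genes first put on the lists, 1 was left out and is not reported here. Named are the 9 members, every list gene past the threshold, the up to 3 tested genes of each list with the largest log2 fold change, the 5 most abundant receptors and brakes, and the 3 genes most like Socs3 and Stat3. Marker genes, ligands at 0 and some further list genes, such as Nfil3 and Bst2, were named with their values known. As alternatives, the constant added was set to 1 or 0.01, the filter to none or 5 FPKM, and changes were made to the scaling, the moderation, the weights, the transcripts used, the block and each library in turn.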

Additional observations from a re-analysis of the deposited data

How the results depend on the processing

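Of 184 recomputed log2 fold changes of the members, 10 changed sign, all of them in values that did not pass the threshold. The number of members past the threshold, 1 as reported, was 0 with plain moderation of variances and with reference transcripts only, and 0 to 1 when each library was left out. The number with groups that do not overlap, 2 as reported, was 1 with reference transcripts only and 2 to 5 with a library left out, where fewer libraries make separation easier. The number of other pathway genes past the threshold, 2 as reported, was 1 with plain moderation, 7 with estimated fragments and 1 to 2 with a library left out. Over all tested genes 32 higher and 6 lower became 13 and 5 with plain moderation, 15 and 4 with reference transcripts only, 142 and 76 with estimated fragments, and 8 and 0 without stimulated replicate 1. The log2 difference of the Socs3 to Socs1 ratio ran from -1.66 to 0.95 with a library left out. With a library left out the log2 fold change ran from -0.046 to 0.11 for Jak1, -0.34 to 0.023 for Stat5b, -1.96 to 0.67 for Socs2, -0.42 to 0.0061 for Socs7, -0.28 to 0.0074 for Pias4, -0.13 to 0.17 for Csf2ra and -0.67 to 2.28 for Pim2. Jak1 was -0.0027 with equal library totals and -0.0063 after quantile normalization. Reference transcripts only turned Pias4 to 1.89, Sh2b3 to -0.41 and Il10rb to 1.16, where FPKM of assembled transcripts are not counted. The setting of status OK only turned Pias4 to 0.032. It also moved the log2 fold change of Stat5a from 0.29 to 2.27 (limma adjusted p = 0.770), with the same sign. The difference in the Stat5a share went from 5.87 to 12.8 percentage points. Single transcripts turned Jak2 to -4.69 (NM_001048177), Stat3 to 3.46 (NM_213659), Stat5a to -2.36 (NM_001164062) and Stat5b to 0.64 (NM_011489). The cause was not tested otherwise. At an estimated 699237 to 776371 fragments a library, genes of a few FPKM carry counting errors as large as their differences.

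Each group has replicates numbered 1 to 3, and nothing ties equal numbers. Deviations from the group means of same-numbered libraries correlated at -0.018, -0.0024 and 0.0099 over tested genes. With the number as a replicate block 0 members passed (Socs3 adjusted p = 0.135 in limma), and 17 genes higher and 1 lower passed in all.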
